A study of Homo sapiens with 24 samples.

Results

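Mitosis genes were followed over 120 min of EGF in MCF10A cells transfected with oligonucleotides against 2 microRNAs. The set held 36 genes whose proteins carry out or regulate cell division, chosen by name from cyclins and CDK1, mitotic kinases, the spindle checkpoint, kinetochores, kinesin motors, spindle proteins, chromosomal passengers and chromosome proteins. A gene was measured where a probe set of the array carried its symbol and no other, and the probe set with the highest mean over 24 arrays stood for it. By that rule 35 of the 36 genes were measured, out of 18417 genes with such a probe set. CENPA, the histone variant that marks centromeres, was covered by a probe set shared with SLC35F6 and has no value here.

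MCF10A is a non-tumorigenic human breast epithelial line, and all groups came from this 1 line. RNA was profiled on Affymetrix Human Gene 1.0 ST arrays in 12 groups of 2 arrays, with 3 transfections sampled 0, 30, 60 and 120 min after EGF. The control cells received a non-targeting oligonucleotide, the si-miR-20a cells an siRNA directed at hsa-miR-20a, and the si-miR-671 cells an siRNA directed at hsa-miR-671-5p. All 3 were delivered with Oligofectamine, and the growth medium of the line held serum, insulin, hydrocortisone, cholera toxin and EGF. The labels call the 2 arrays of a group biological duplicates without saying what separated them, so the p-values measure the spread between these samples. There were no arrays without EGF at matched times, so EGF, elapsed time and handling cannot be told apart. Mature microRNAs were not measured.

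Every value is the authors' deposited log2 level, on which a difference of 1 is a doubling; levels of different genes are not compared, because they come from different probes. Array medians lay between 6.56 and 6.57, and the 2 arrays of a group correlated at 0.975 to 0.990 over all probe sets. A gene was said to rise or fall where limma gave a Benjamini-Hochberg adjusted p under 0.05 over the 19460 probe sets with a single symbol, and errors are standard errors of that fit unless stated otherwise. Counts at unadjusted p under 0.05 are a description only, because the share of all probe sets at that threshold was not counted. As a check of the labelled cell type, the median log2 level over 24 arrays ran from 10.5 to 12.7 over the 4 basal epithelial markers measured (KRT5 12.7, KRT14 11.9, LAMB3 11.2, ITGB4 10.5) and was 9.51 for CDH1 and 8.69 for EPCAM. It ran from 4.85 (PGR) to 11.2 (KRT18) over 6 luminal markers, from 5.90 (PDGFRB) to 11.5 (VIM) over 6 mesenchymal markers, and from 4.34 (PTPRC) to 8.005 (CD14) over 6 blood and endothelial markers. Because the probes differ, these levels rank no cell type above another. The summed level of the 6 blood and endothelial markers ran from 34.99 to 36.04 in control, 34.44 to 37.49 in si-miR-20a and 34.60 to 36.78 in si-miR-671 arrays. The summed level of CDH1 and EPCAM, the 2 general epithelial markers, was 17.5 to 17.7 in control, 18.3 to 18.9 in si-miR-20a and 18.0 to 18.6 in si-miR-671 arrays, so it moved with transfection, and its part in the differences below was not tested.

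Genes of mitosis are transcribed periodically over the cell cycle. Their RNA is low in resting cells and high as cells approach and pass through division, so in a mixed culture it follows the share of dividing cells. In bulk RNA a smaller share of dividing cells and less RNA per dividing cell cannot be told apart. Many of their promoters hold a CHR element, bound by the MuvB core that either represses the genes in resting cells or, with B-MYB and FOXM1, activates them, and CCAAT boxes bound by NF-Y. EGF is a mitogen for mammary epithelial cells.

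The mature sequences of the targeted microRNAs are shown because they define the transfections. They are from RefSeq GRCh38.p14, at chr13:91351072-91351094 and chr7:151238449-151238471, both on the plus strand, and capitals mark the seed, bases 2 to 8, which pairs with target RNAs. The seeds differ.
hsa-miR-20a-5p: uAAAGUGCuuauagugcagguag
hsa-miR-671-5p: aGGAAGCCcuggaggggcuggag

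The stretches just upstream of the start site of 6 mitosis genes are shown because these genes are described one by one below. KIF4A, BUB1B and ANLN were higher with both oligonucleotides, KIF23 rose after EGF, and CCNA2 and CENPE were lower with si-miR-20a. Each is the 100 bases ending before the annotated start, from RefSeq GRCh38.p14: KIF4A at chrX:70290004-70290103, BUB1B at chr15:40160969-40161068, ANLN at chr7:36389762-36389861 and KIF23 at chr15:69414249-69414348 on the plus strand, CCNA2 at chr4:121823884-121823983 and CENPE at chr4:103198344-103198443 on the minus strand. Capitals mark letters of a CHR element (TTTGAA or TTCGAA) or a CCAAT box on either strand, so that TTCAAA and ATTGG are the reverse readings.
KIF4A: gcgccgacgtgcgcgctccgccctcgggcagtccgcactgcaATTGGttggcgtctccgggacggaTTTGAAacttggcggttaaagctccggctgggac
BUB1B: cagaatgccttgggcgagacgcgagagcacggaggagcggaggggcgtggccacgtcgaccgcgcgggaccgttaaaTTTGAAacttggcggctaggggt
ANLN: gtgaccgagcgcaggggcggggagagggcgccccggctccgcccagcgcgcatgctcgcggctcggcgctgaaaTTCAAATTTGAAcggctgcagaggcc
KIF23: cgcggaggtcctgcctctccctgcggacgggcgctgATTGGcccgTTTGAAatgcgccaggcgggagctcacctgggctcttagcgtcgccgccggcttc
CCNA2: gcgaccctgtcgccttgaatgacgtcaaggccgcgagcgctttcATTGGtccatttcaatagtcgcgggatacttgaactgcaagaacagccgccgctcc
CENPE: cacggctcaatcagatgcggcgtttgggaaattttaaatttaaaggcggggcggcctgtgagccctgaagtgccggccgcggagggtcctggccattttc

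RefSeq gave 33 start site windows for 30 of the 36 genes, each running from 250 bases before to 50 bases after the start. The windows of AURKA, TTK, BIRC5, UBE2C, FOXM1 and TPX2 were not analysed here. CHR letters, searched on both strands with the palindrome TTCGAA counted once per position, were present in 26 of the 33 windows (78.8%), beside 13.6% of 20109 windows of genes tested on the arrays. CCAAT letters were also present in 26 of 33 (78.8%), beside 34.6% of the tested genes' windows, and both motifs stood in 21 windows (63.6%), beside 5.41%. The TATA box letters TATAAA were present in 2 windows, those of NUSAP1 and TOP2A (6.06%, beside 9.06%). Counted by gene, 24 genes had CHR letters, 24 had CCAAT letters, 20 had both in the same window, and CENPE and KIF2C had neither. A match is a run of letters and not a measured binding site, and a window without one says only that these letters are not in it. Of the 39 CHR matches, 18 began within the 60 bases before the start, which include those printed for KIF4A, BUB1B, ANLN and KIF23.

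**Figure D1:**
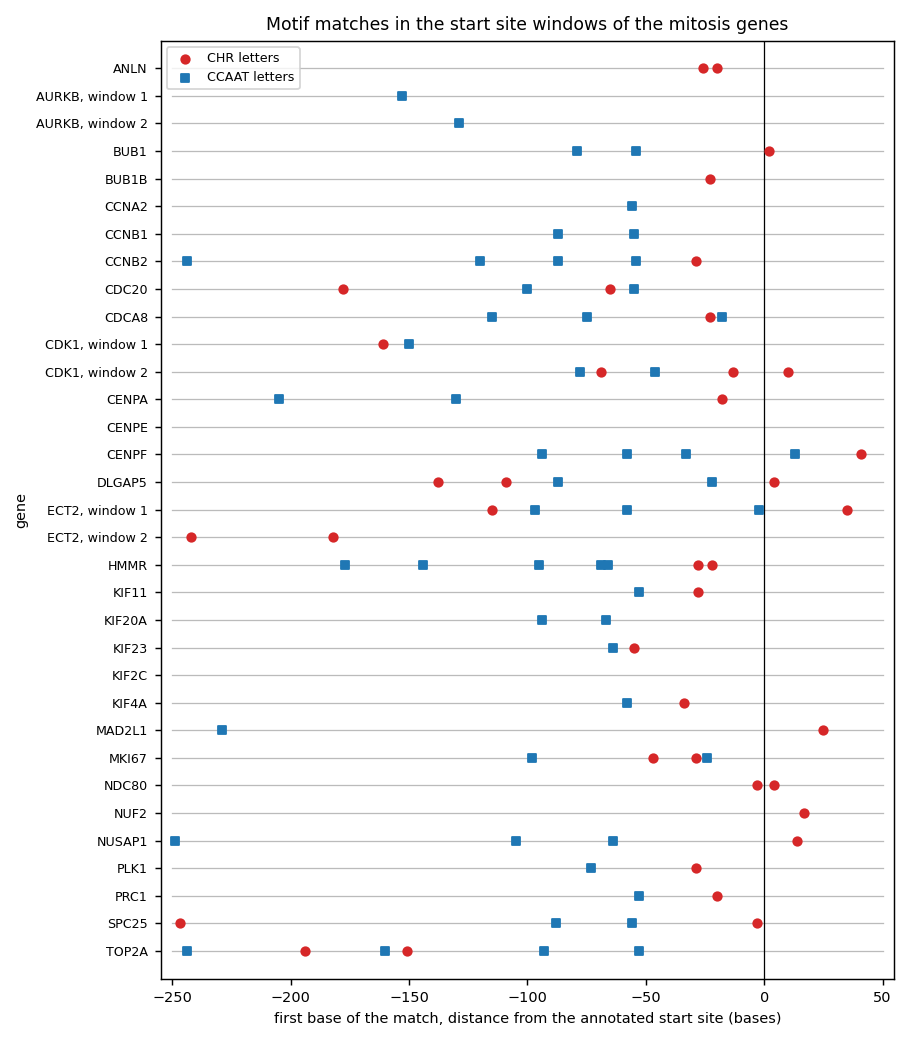
Position of CHR (red circles) and CCAAT (blue squares) letters in the 33 RefSeq windows of 30 mitosis genes; the x axis is the distance of a match's first base from the annotated start site in bases, and each line is a window. CHR letters are present in 26 windows and CCAAT letters in 26, and the lines of CENPE and KIF2C are empty.

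Targeting miR-671-5p went with higher levels of nearly the whole set. Averaged over the 35 genes, the log2 level was 8.10 and 8.07 on the 2 control arrays at 0 min, 8.05 and 8.003 at 30 min, 8.03 and 7.97 at 60 min, and 7.82 and 7.82 at 120 min. With si-miR-671 it was 8.42 and 8.34 at 0 min, 8.31 and 8.30 at 30 min, 8.24 and 8.27 at 60 min, and 8.24 and 8.27 at 120 min. Every si-miR-671 array lay above every control array on this measure. The si-miR-20a arrays, at 8.19 and 8.04, 7.92 and 7.97, 8.25 and 8.12, and 7.92 and 7.97 at the same times, overlapped the control range.

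**Figure D2:**
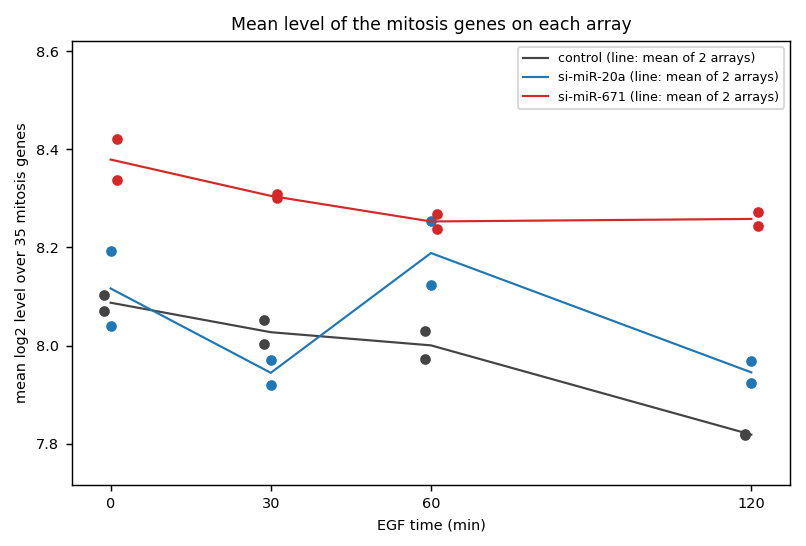
Mean log2 level over the 35 mitosis genes (y axis) on each array against EGF time in minutes (x axis); points are arrays, shifted slightly sideways by transfection, and lines join the means of the 2 arrays of a group. The 8 si-miR-671 arrays sit between 8.24 and 8.42, above the highest control array at 8.10, and both control arrays at 120 min are at 7.82.

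Over the 4 times together, 31 of 35 mitosis genes rose in si-miR-671 against control and none fell (8 arrays against 8, limma, Benjamini-Hochberg). Over all probe sets 6.79% rose and 7.7% fell. The median difference was 0.28 on the log2 scale for the mitosis genes, with all 35 above 0, and -0.0003 for all probe sets. For 14 genes the lowest si-miR-671 array exceeded the highest control array, which held for 1.55% of all probe sets. At unadjusted p under 0.05, 34 of the 35 were higher, and the share of all probe sets at that threshold was not counted.

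**Figure D3:**
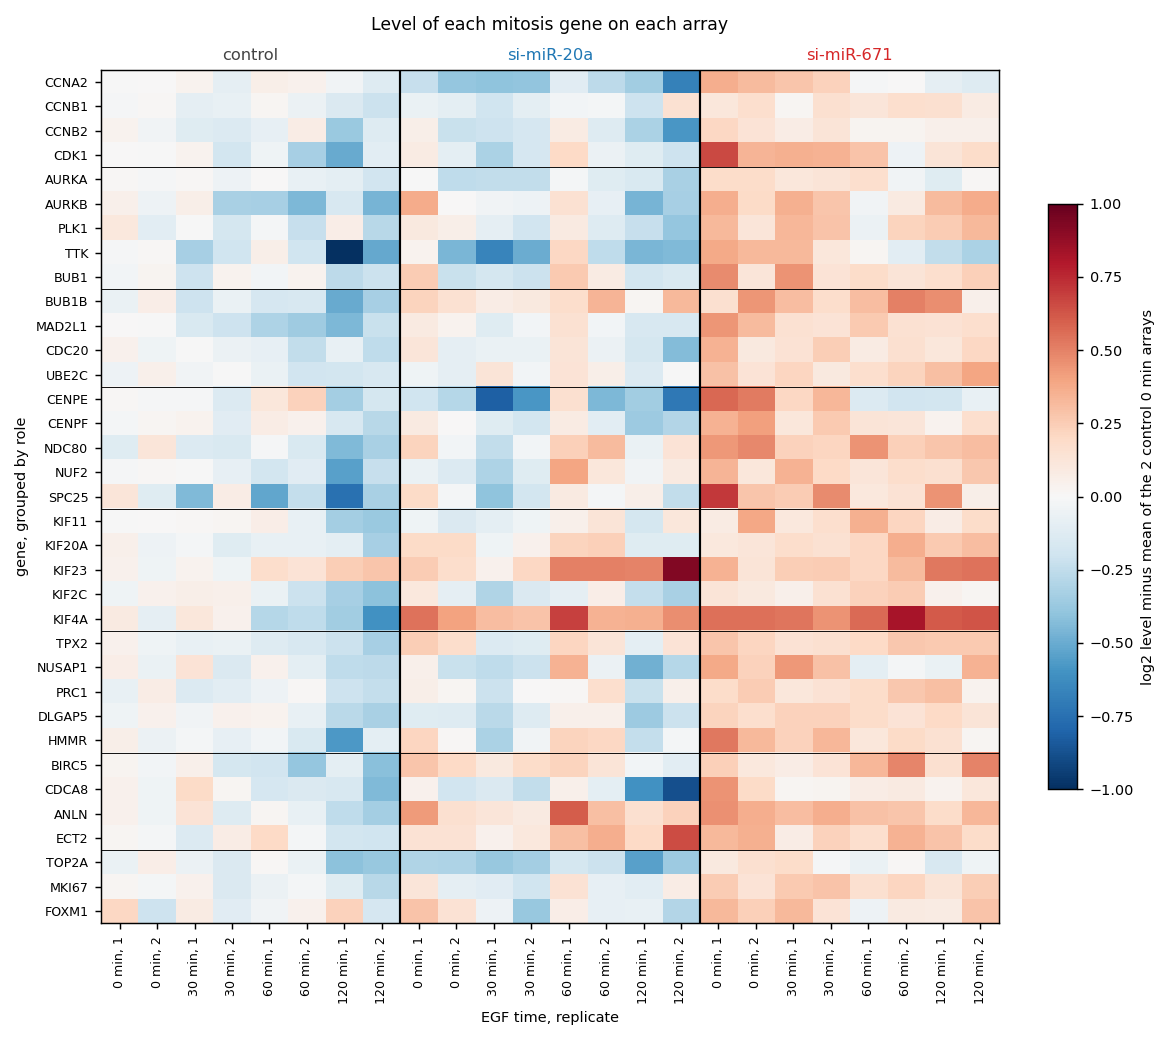
Level of each of the 35 mitosis genes (y axis, grouped by role) on each of the 24 arrays (x axis, EGF time in minutes and replicate), as log2 level minus the mean of the 2 control arrays at 0 min (colour, red higher and blue lower). The si-miR-671 block is mostly red, the control columns at 120 min are mostly blue, and KIF4A is red on all 16 arrays of both targeting transfections.

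Among the cyclins and their kinase, 3 of 4 rose with si-miR-671. CDK1, the kinase whose activation starts mitosis, was at 7.01, 7.45 and 7.55 (lowest, median and highest of the 8 control arrays) and at 7.47, 7.83 and 8.18 with si-miR-671, a rise of 0.42 ± 0.08 or 1.34-fold (adjusted p = 0.002). Its mitotic partners CCNB1 and CCNB2 rose by 0.20 ± 0.05 and 0.18 ± 0.06. CCNA2, the cyclin that acts from DNA synthesis to early mitosis, did not pass the test, at 0.13 ± 0.05 (adjusted p = 0.091). Of the 5 mitotic kinases 4 rose: AURKB, the kinase of the chromosomal passenger complex, by 0.45 ± 0.07, the checkpoint kinases TTK by 0.33 ± 0.09 and BUB1 by 0.32 ± 0.07, and PLK1, which acts at centrosomes and kinetochores, by 0.31 ± 0.07. AURKA, the centrosomal Aurora kinase, was 0.13 ± 0.05 higher, with an adjusted p of 0.097.

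All 4 genes of the spindle checkpoint and of the ubiquitin ligase it holds back rose. MAD2L1, a checkpoint protein that binds CDC20, was at 8.09, 8.33 and 8.55 in control and 8.68, 8.70 and 8.98 with si-miR-671, with no overlap and a rise of 0.43 ± 0.04 (adjusted p = 7.1e-06). BUB1B, which encodes the checkpoint protein BUBR1, rose by 0.48 ± 0.07, from 6.39, 6.72 and 6.95 to 6.94, 7.20 and 7.39, and the arrays met only at their edges. UBE2C, the ubiquitin-conjugating enzyme of the anaphase-promoting complex, and CDC20, its activator, rose by 0.31 ± 0.04 and 0.27 ± 0.06 without overlap.

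Of the 5 kinetochore genes 4 rose, and the 3 that belong to the NDC80 complex, which attaches chromosomes to microtubules, had the largest values. SPC25 rose by 0.59 ± 0.10 (adjusted p = 0.0012), though its arrays overlapped, at 5.63, 6.09 and 6.50 in control and 6.43, 6.64 and 7.08 with si-miR-671. NDC80 rose by 0.48 ± 0.06 (adjusted p = 4.3e-05), from 6.34, 6.63 and 6.89 to 6.99, 7.07 and 7.26 without overlap. NUF2 rose by 0.36 ± 0.06 and CENPF, a large kinetochore protein, by 0.25 ± 0.04. CENPE, a kinetochore motor that brings chromosomes to the spindle equator, was 0.17 ± 0.08 higher, with an adjusted p of 0.20.

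All 5 kinesins rose. KIF4A, a chromokinesin that organises the midzone of the anaphase spindle, had the largest difference of the set, 0.76 ± 0.06 or 1.69-fold (adjusted p = 7.1e-07). Its control arrays were at 6.47 and 6.29, 6.49 and 6.42, 6.09 and 6.12, and 6.03 and 5.78 at 0, 30, 60 and 120 min. Its si-miR-671 arrays were at 6.93 and 6.93, 6.91 and 6.83, 6.94 and 7.21, and 6.99 and 7.01. The 2 ranges did not overlap, and the control arrays were lowest at 120 min while the si-miR-671 arrays were not. KIF20A, needed for cytokinesis, rose by 0.30 ± 0.04, KIF11, the motor that separates spindle poles, by 0.28 ± 0.05, KIF2C, a microtubule depolymerase, by 0.24 ± 0.04, and KIF23 by 0.22 ± 0.06. KIF4A also has a close relative, KIF4B, and a further probe set shared by both was not used.

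All 5 spindle proteins rose: HMMR by 0.35 ± 0.07, TPX2, which nucleates microtubules and activates AURKA, by 0.35 ± 0.04, PRC1, a microtubule bundler of the midzone, by 0.28 ± 0.06, DLGAP5 by 0.27 ± 0.04 and NUSAP1 by 0.26 ± 0.08. All 4 chromosomal passenger and cytokinesis genes rose as well. BIRC5, which encodes survivin, was at 6.997, 7.28 and 7.47 in control and 7.49, 7.62 and 7.92 with si-miR-671, a rise of 0.41 ± 0.06 without overlap. A second BIRC5 probe set with a lower mean (5.03 against 7.49) differed by 0.40 ± 0.15 and did not pass the test (adjusted p = 0.095). ANLN, a scaffold of the cleavage furrow, rose by 0.40 ± 0.06 without overlap, ECT2, which activates the small GTPase that contracts the furrow, by 0.28 ± 0.06, and CDCA8, the passenger protein borealin, by 0.21 ± 0.06. MKI67, the proliferation marker Ki-67, rose by 0.28 ± 0.05, from 7.60, 7.84 and 7.92 to 8.01, 8.11 and 8.16 without overlap. TOP2A, the topoisomerase that untangles sister chromatids, rose by 0.15 ± 0.04 (adjusted p = 0.033), the smallest value called, and FOXM1, a transcription factor that activates many of the other genes, was 0.17 ± 0.08 higher with an adjusted p of 0.19.

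**Figure D4:**
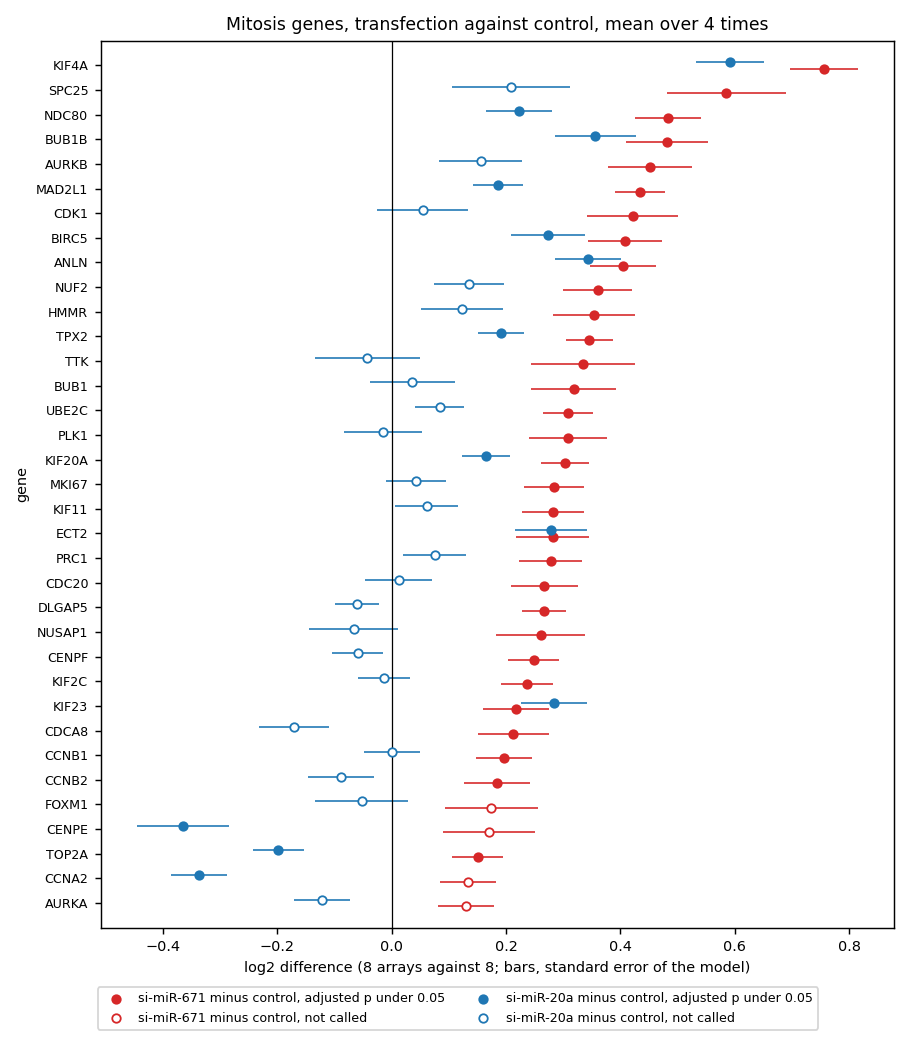
Log2 difference from control (x axis, mean over 4 times, 8 arrays against 8, bars are standard errors of the fit) of each mitosis gene (y axis) for si-miR-671 (red) and si-miR-20a (blue); filled points passed an adjusted p under 0.05. All red points lie above 0, between 0.13 and 0.76, and the blue points run from -0.37 for CENPE to 0.59 for KIF4A.

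Each of 25 of the 31 calls held without any 1 of the 16 arrays. The other 6 were lost in some of these fits: CCNB2 in 14 of 16, CDCA8 in 11, NUSAP1 and TOP2A in 10, TTK in 6 and KIF23 in 2, with adjusted p up to 0.11.

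Time by time, both si-miR-671 arrays lay above both control arrays for 35 of 35 mitosis genes at 0 min (20.3% of all probe sets), 33 at 30 min (19.2%), 24 at 60 min (31%) and 31 at 120 min (23.2%). They lay below for 2 genes, both at 60 min (31.8%). Over all probe sets 15.4% were called at 60 and 120 min and 2.81% at 0 and 30 min, so early and late arrays are given apart. In the early arrays 8 mitosis genes rose and none fell, beside 1.36% and 1.44% of all probe sets, with a median of 0.26 and all 35 above 0. They were KIF4A (0.48 ± 0.08), CDK1 (0.46 ± 0.11), NDC80, ANLN, MAD2L1, CCNA2 (0.31 ± 0.07), CENPF and TPX2, and 31 genes had no overlap between the 4 early arrays of each transfection (6.11% of all probe sets). In the late arrays 25 rose and none fell, beside 7.04% and 8.37%, with a median of 0.32, 33 genes above 0 and 22 without overlap (8.27%). The early count rests on few arrays: it was 2 without control replicate 1 at 0 min or control replicate 2 at 30 min, and 3 without control replicate 2 at 0 min or any 1 of the 4 early si-miR-671 arrays. Early calls of MAD2L1 and KIF4A held in all of these fits. In 9 other settings of the limma fit the early KIF4A call held, and that of MAD2L1 was lost in 1 (adjusted p = 0.055).

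CCNA2 and CENPE stood above control in the early si-miR-671 arrays and near it in the late ones. CCNA2 was at 8.91 and 8.86 at 0 min and 8.82 and 8.77 at 30 min with si-miR-671, above all control arrays (8.42 to 8.60), and at 8.53 and 8.55, and 8.45 and 8.41 at 60 and 120 min, close to them. CENPE was at 7.01 and 6.96, 6.64 and 6.77, 6.30 and 6.24, and 6.25 and 6.36 with si-miR-671, against 6.45 and 6.42, 6.42 and 6.30, 6.55 and 6.66, and 6.10 and 6.26 in control. Against control the late differences were -0.04 ± 0.07 for CCNA2 and -0.10 ± 0.11 for CENPE. KIF4A moved the other way, from 0.48 ± 0.08 early to 1.03 ± 0.08 late, as did BIRC5, from 0.17 ± 0.09 to 0.64 ± 0.09. The change from early to late itself, tested directly as late minus early in si-miR-671 less the same in control, passed for none of the 35 genes, beside 0.519% of all probe sets. It reached unadjusted p under 0.05 for 8, among them KIF4A at 0.55 (adjusted p = 0.058), BIRC5 at 0.47 (0.11), CENPE at -0.55 (0.14) and CCNA2 at -0.36 (0.12). Without 1 of 5 arrays (control 120 min replicate 1, both si-miR-20a arrays at 60 min and both at 120 min) the count was 1.

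Targeting miR-20a went with higher levels of some mitosis genes. Over the 4 times 10 of 35 mitosis genes rose and 3 fell in si-miR-20a against control, while 11.9% of all probe sets rose and 12.7% fell. The falls were thus a smaller share of the mitosis genes than of all probe sets. The median difference was 0.05 for the mitosis genes, with 22 above 0, and 0.01 for all probe sets. At unadjusted p under 0.05 there were 16 genes, and the share of all probe sets at that threshold was not counted. The control arrays are those used for si-miR-671, so the 2 sets of differences share them.

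KIF4A was again the highest, at 6.92 and 6.78, 6.69 and 6.67, 7.06 and 6.73, and 6.73 and 6.84 at the 4 times, all above its highest control array. It rose by 0.59 ± 0.06 or 1.51-fold (adjusted p = 4.4e-06). It was the only gene of the 35 whose arrays did not overlap. That count is close to the share of all probe sets that were higher without overlap (2.84%). BUB1B rose by 0.36 ± 0.07, from 6.39, 6.72 and 6.95 to 6.91, 7.06 and 7.23, with overlap at the edge. ANLN rose by 0.34 ± 0.06, KIF23 and ECT2 by 0.28 ± 0.06 each, and BIRC5 by 0.27 ± 0.06. NDC80 rose by 0.22 ± 0.06, TPX2 and MAD2L1 by 0.19 ± 0.04 each and KIF20A by 0.16 ± 0.04. By role, 3 of 5 kinesins and 3 of 4 passenger and cytokinesis genes rose, and none of the 5 mitotic kinases passed the test.

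The 3 genes that fell with si-miR-20a were CCNA2, CENPE and TOP2A, a smaller share than the 12.7% of all probe sets that fell. CCNA2 was at 8.31 and 8.16, 8.15 and 8.15, 8.43 and 8.28, and 8.20 and 7.87 at 0, 30, 60 and 120 min, against 8.54 and 8.55, 8.58 and 8.46, 8.60 and 8.59, and 8.51 and 8.42 in control. At each time both si-miR-20a arrays were below both control arrays, and CCNA2 fell by 0.34 ± 0.05 (adjusted p = 0.00014). CENPE fell by 0.37 ± 0.08 (adjusted p = 0.0035), with si-miR-20a arrays at 6.23 and 6.15, 5.62 and 5.85, 6.59 and 5.99, and 6.09 and 5.72. Its groups overlapped, with both si-miR-20a arrays at 0 min and 1 at 60 min above the lowest control array. TOP2A fell by 0.20 ± 0.04 (adjusted p = 0.0038), from 9.28, 9.62 and 9.75 to 9.14, 9.36 and 9.51. All 13 calls held without any 1 of the 16 arrays.

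Early and late si-miR-20a arrays are given apart as well. Early, 1 gene rose (KIF4A, 0.35 ± 0.08) and 3 fell (CENPE by 0.43 ± 0.11, CCNA2 by 0.34 ± 0.07 and TOP2A by 0.28 ± 0.06), beside 4.79% and 7.17% of all probe sets, with a median of -0.01. In these arrays 4 genes were higher without overlap (8.47% of all probe sets) and 5 lower (10.6%). These early counts lie near the shares of all probe sets and are given as a description only. Without control replicate 2 at 0 min the early count was 2 rather than 4. Of the 8 fits without 1 of the early arrays compared, the CENPE call was lost in 5 and that of KIF4A in 2. The early calls of CCNA2 and TOP2A held in all of them. Late, 11 rose and 1 fell (CCNA2, by 0.34 ± 0.07), beside 8.95% and 7.75%, with a median of 0.16 and 8 genes higher without overlap (7.66%). The late rises included KIF4A (0.84 ± 0.08), BUB1B (0.51 ± 0.10), ANLN (0.49 ± 0.08), ECT2 (0.43 ± 0.09), NUF2 (0.41 ± 0.09) and KIF23 (0.40 ± 0.08). Both si-miR-20a arrays lay above both control arrays for 9, 5, 20 and 16 of the 35 genes at 0, 30, 60 and 120 min (21.5%, 22.3%, 26.8% and 23.3% of all probe sets), and below for 7, 16, 2 and 5 (21.7%, 26.4%, 22.6% and 22.4%). Late minus early in si-miR-20a less the same in control passed for none of the 35 genes, beside 0.00514% of all probe sets, with 11 at unadjusted p under 0.05. In a fit of only the arrays compared 3 late calls were made, and the cause was not tested.

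Set directly against each other, si-miR-671 arrays were higher than si-miR-20a arrays for 24 of the 35 mitosis genes and lower for none (2.16% and 2.38% of all probe sets). The median difference was 0.25, with 34 genes above 0. The largest among those that passed were CENPE, at 0.54 ± 0.08 (adjusted p = 0.0018), and CCNA2, at 0.47 ± 0.05 (adjusted p = 8.3e-05), followed by CDCA8 and TTK at 0.38 each, CDK1 at 0.37 and TOP2A at 0.35. By role, all 4 cyclin and CDK1 genes, all 5 mitotic kinases and 1 of the 4 passenger and cytokinesis genes passed, but these counts were not stable. CCNB1, AURKB, TTK and BUB1 lost the call without 11, 10, 11 and 12 of the 16 arrays in turn, and all 4 lost it without si-miR-20a replicate 2 at 0 min (adjusted p 0.075, 0.081, 0.074 and 0.098). Calls in other roles were lost as often, with NUF2 in 14 of the 16 fits, TPX2 in 13, KIF11 in 10, NUSAP1 in 9 and CDC20 in 8. DLGAP5 and TOP2A had no overlap (0.0668% of all probe sets). The 11 genes that did not pass included ECT2, at 0.00 with a 95% interval of -0.13 to 0.14, ANLN, at 0.06 (-0.06 to 0.18), KIF23, at -0.07 (-0.19 to 0.06), KIF4A, at 0.17 (0.04 to 0.29) and BUB1B, at 0.13 (-0.03 to 0.28). The others were BIRC5, KIF20A, PRC1, FOXM1, HMMR and SPC25, between 0.13 and 0.38. The count was 14 without si-miR-20a replicate 2 at 0 min, si-miR-20a replicate 1 at 30 min, si-miR-671 replicate 1 at 0 min or si-miR-671 replicate 1 at 60 min, and 15 without si-miR-20a replicate 2 at 60 min.

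After EGF, calls of mitosis genes came at 120 min and were mostly decreases. Averaged over the 3 transfections, no mitosis gene passed the test at 30 min or at 60 min against 0 min (limma, 6 arrays against 6), beside 0.766% and 2.66% of all probe sets. At unadjusted p under 0.05 there were 6 and 4, and the medians were -0.09 and -0.03. At 120 min 13 of the 35 fell and 1 rose, beside 6.27% and 7.13% of all probe sets, with a median of -0.17, 34 genes below 0, and a median of 0.01 over all probe sets. At unadjusted p under 0.05 there were 23. No gene had 120 min arrays wholly outside its 0 min arrays (0.956% of all probe sets lay below without overlap and 3.23% above). Without si-miR-20a replicate 1 or si-miR-671 replicate 1 at 0 min the count was 9 in place of 14. With the si-miR-671 arrays out of the comparison, though still in the fit, the count was 12.

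TTK, a kinase that starts the spindle checkpoint, fell most at 120 min, by 0.54 ± 0.11 (adjusted p = 0.0028). Its control arrays were at 7.09 and 7.11, 6.77 and 6.90, 7.16 and 6.90, and 6.10 and 6.59 at 0, 30, 60 and 120 min, its si-miR-20a arrays at 7.13 and 6.64, 6.44 and 6.602, 7.31 and 6.84, and 6.65 and 6.66, and its si-miR-671 arrays at 7.48 and 7.42, 7.43 and 7.21, 7.12 and 6.996, and 6.86 and 6.78. The 120 min arrays were the lowest of control and of si-miR-671. In si-miR-20a both 30 min arrays and replicate 2 at 0 min were lower than both 120 min arrays. CENPE fell by 0.41 ± 0.09, CDCA8 by 0.40 ± 0.07 and HMMR by 0.30 ± 0.08. CENPF fell by 0.29 ± 0.05 and AURKB by 0.28 ± 0.08. MAD2L1 and TOP2A fell by 0.26 ± 0.05 each, KIF2C by 0.25 ± 0.05, CCNB2 by 0.25 ± 0.07, CCNA2 by 0.24 ± 0.06, DLGAP5 by 0.17 ± 0.04 and TPX2 by 0.15 ± 0.05. With the si-miR-671 arrays out of the comparison, though still in the fit, CCNA2, CENPE and HMMR no longer passed (adjusted p 0.26, 0.17 and 0.095). CCNB2, AURKB, TPX2, HMMR and DLGAP5 also lost the call without some single arrays, among them si-miR-671 replicate 1 and si-miR-20a replicate 1 at 0 min for all 5.

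KIF23, the motor subunit of the centralspindlin complex that sets up the cleavage furrow, was the 1 gene that rose. This was a smaller share than the 7.13% of all probe sets that rose. Its control arrays were at 8.42 and 8.34, 8.41 and 8.34, 8.56 and 8.52, and 8.63 and 8.66 at 0, 30, 60 and 120 min. Its si-miR-20a arrays were at 8.63 and 8.55, 8.42 and 8.59, 8.88 and 8.88, and 8.88 and 9.31, and its si-miR-671 arrays at 8.73 and 8.51, 8.63 and 8.64, 8.59 and 8.70, and 8.90 and 8.92. In each transfection both 120 min arrays were above both 0 min arrays. Singly this held for 19.8% of all probe sets in control, 21.8% in si-miR-20a and 26% in si-miR-671. The share that did so in every transfection was not counted. The rise of KIF23 was 0.35 ± 0.07 (limma, adjusted p = 0.0022).

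Within single transfections, with 2 arrays against 2, few calls were made. In control 4 fell (TTK by 0.76 ± 0.18, KIF4A by 0.48 ± 0.12, TOP2A by 0.39 ± 0.09 and KIF2C by 0.37 ± 0.09) and none rose, beside 0.791% and 2.17% of all probe sets. The control median was -0.26, 32 genes had both 120 min arrays below both 0 min arrays (20.8% of all probe sets) and 1, KIF23, above (19.8%). In si-miR-20a 4 fell (CDCA8 by 0.67 ± 0.12, AURKB by 0.58 ± 0.15, CENPF by 0.38 ± 0.09 and KIF20A by 0.31 ± 0.08) and KIF23 rose by 0.50 ± 0.12, beside 3.14% and 4.49%, with a median of -0.18, 18 genes below without overlap (20.1%) and 3 above (21.8%). In si-miR-671 2 fell (CENPE by 0.68 ± 0.16 and CCNA2 by 0.45 ± 0.10) and none rose, beside 2.73% and 3.22%, with a median of -0.10, 15 below without overlap (23.6%) and 4 above (26%). At unadjusted p under 0.05 there were 20, 14 and 10 genes.

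These small counts turned on single arrays. The control count was 0 to 2 without either control array at 0 min, 30 min or 120 min or either si-miR-671 array at 0 min. The si-miR-20a count was 0 without si-miR-20a replicate 1 at 0 min or replicate 2 at 120 min, and the si-miR-671 count was 0 without any 1 of its 4 arrays. The difference between the responses was tested directly and passed for none of the 35 genes, either for si-miR-20a or for si-miR-671 against control, beside 7 and 13 of all 19460 probe sets. At unadjusted p under 0.05 there were 4 and 9.

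**Figure D5:**
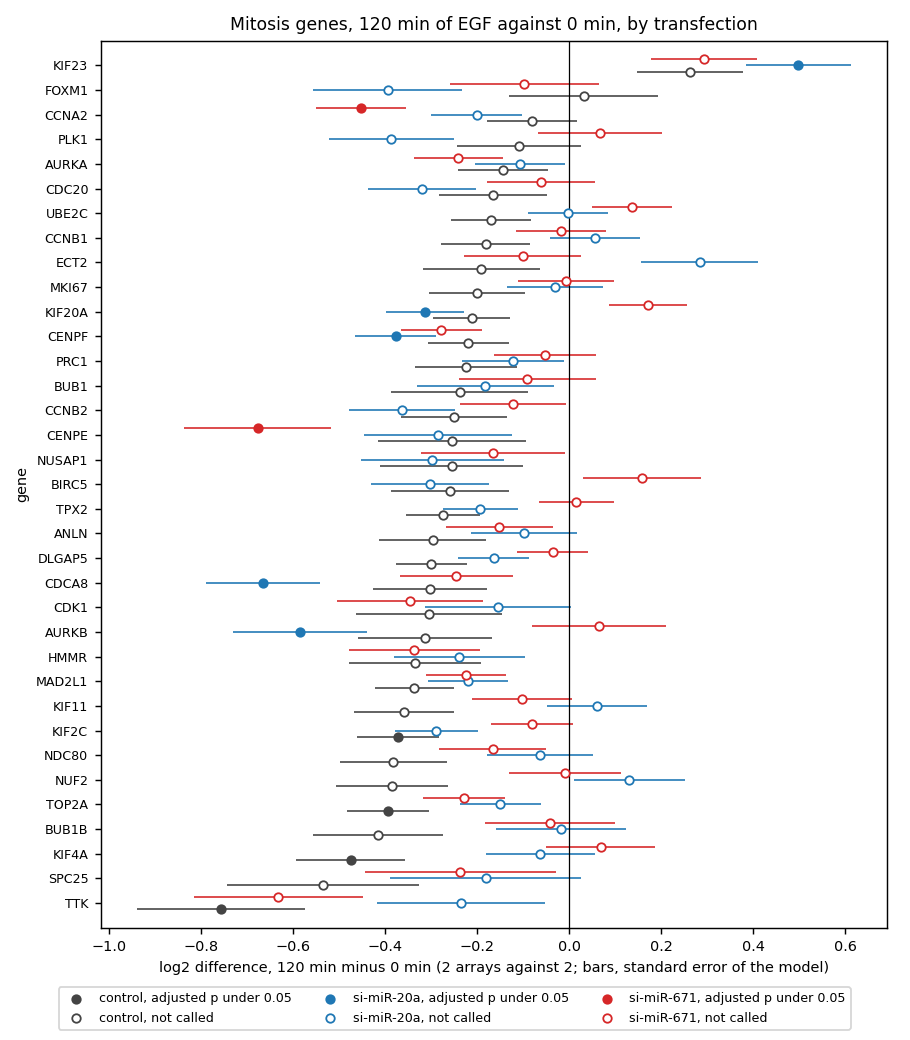
Log2 difference of 120 min of EGF against 0 min (x axis, 2 arrays against 2, bars are standard errors of the fit) of each mitosis gene (y axis) in control (grey), si-miR-20a (blue) and si-miR-671 (red); filled points passed an adjusted p under 0.05. Most points lie below 0, with medians of -0.26, -0.18 and -0.10, and KIF23 lies above 0 in all 3 transfections.

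Other genes of the cell cycle were set beside the mitosis genes. Over all probe sets 6.79% rose and 7.7% fell with si-miR-671, 11.9% and 12.7% with si-miR-20a, and 7.13% and 6.27% after 120 min of EGF, and the counts below stand beside these shares. Among 50 further mitotic genes 32 rose and 1 fell with si-miR-671 (median 0.28) and 13 rose and 3 fell with si-miR-20a (median 0.10). RACGAP1, the partner of KIF23 in centralspindlin, was the largest named in both, at 0.75 ± 0.06 and 0.68 ± 0.06, followed by SMC2, a condensin subunit, at 0.65 ± 0.06 and 0.58 ± 0.06. ASPM, a spindle pole protein, rose by 0.42 ± 0.05 with si-miR-671, and CDC25B, a phosphatase that activates CDK1, fell by 0.36 ± 0.04 with si-miR-20a. After 120 min of EGF 12 of the 50 fell and 2 rose (median -0.13), with TACC3 falling by 0.31 ± 0.07 and the kinesin gene KIF18B rising by 0.39 ± 0.08.

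Of 36 measured genes of the start of DNA replication 29 rose and none fell with si-miR-671 (median 0.32), and 13 rose and none fell with si-miR-20a (median 0.14). CDC6, which loads the replicative helicase, rose by 0.57 ± 0.05 and 0.45 ± 0.05, and the helicase subunit MCM3 by 0.40 ± 0.04 and 0.37 ± 0.04. After 120 min of EGF 9 of the 36 fell and none rose (median -0.09), led by the licensing factor CDT1, which fell by 0.74 ± 0.09, and ORC1, of the origin recognition complex, by 0.54 ± 0.07. The remaining lists are short, and counts this small near the shares of all probe sets are given as a description only. Of 20 regulators of cell cycle promoters 4 rose and none fell with si-miR-671, among them the MuvB subunits LIN9 (0.26 ± 0.04) and LIN37 (0.28 ± 0.06) and the pocket protein gene RBL1 (0.30 ± 0.05), while 4 rose and 1 fell with si-miR-20a (11.9% and 12.7% of all probe sets). After 120 min of EGF 4 of them rose and 3 fell, with E2F7, a repressor of E2F targets, rising by 0.56 ± 0.09 and RBL1 falling by 0.26 ± 0.06.

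Of 17 measured inhibitors and brakes of division 5 rose and 3 fell with si-miR-671 (6.79% and 7.7% of all probe sets), and 6 rose and 2 fell with si-miR-20a (11.9% and 12.7%). CCNG1, a p53 target, fell by 0.48 ± 0.05 and 0.87 ± 0.05, and CDKN1B, the CDK inhibitor p27, by 0.33 ± 0.06 and 0.44 ± 0.06. CDKN1A, the CDK inhibitor p21, rose by 0.47 ± 0.04 with si-miR-20a. After 120 min of EGF 6 of the 17 rose and 2 fell, with GADD45A and CDKN1A rising by 0.67 ± 0.06 and 0.45 ± 0.05 and CDKN1B falling by 0.71 ± 0.07. Of 9 genes of the resting-to-cycling transition (CCND1, CCND2, CCND3, CDK2, CDK4, CDK6, MYC, SKP2 and CKS1B, the last also among the 50 further mitotic genes) 3 rose and 1 fell with si-miR-671 and 3 rose and 3 fell with si-miR-20a, and after 120 min of EGF MYC and CCND1, classical targets of growth factor signalling, rose by 0.58 ± 0.05 and 0.37 ± 0.07 while CKS1B fell by 0.28 ± 0.06.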

How the data were processed

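The authors deposited log2 levels for 33297 Affymetrix transcript clusters on 24 arrays. Per the submitters' processing notes they were made with Affymetrix Expression Console; its version, summarisation and normalization are not given in the sources used here. Gene symbols came from GEO's platform annotation: 19460 probe sets had 1 symbol and were tested, 1754 had several and 12083 were not listed. The series protocol also names an oligonucleotide against miR-212, which was not analysed here.

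limma 3.58.1 (R 4.3.3) fitted 1 mean per group over the 24 arrays (12 residual degrees of freedom), with eBayes and Benjamini-Hochberg adjustment over all 19460 probe sets. The fit was also run on simulated data with known changes. Those values varied independently from gene to gene, so the run does not bear on the counts above. Sequences were read with Python 3.11.15 and pandas 2.3.3, and figures drawn with matplotlib 3.10.9. All members could be named, and from each of the other lists values are given for up to 4 called genes with the smallest p. The members, lists and comparisons were chosen with earlier results of these data known. Same-numbered replicates were not treated as pairs: across 66 pairs of groups, deviations of same-numbered arrays correlated at -0.50 to 0.46, and 27 pairs were above 0.1.

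Alternatives were leaving out each array, a replicate block, quantile normalization, median centring, a filter on low values, all probe sets, an intensity trend, array weights, only the arrays compared, and a gene's mean over probe sets. For EGF times averaged over transfections, a further alternative compared only control and si-miR-20a arrays, with the si-miR-671 arrays kept in the fit.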

Additional observations from a re-analysis of the deposited data

Results flagged for a closer look

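For 5 combinations of a mitosis gene and a transfection, both 120 min arrays lay on one side of both 0 min arrays in control and on the other side after transfection. The share of all probe sets that did so was not counted. At 120 min against 0 min, 20.8% of all probe sets lay below and 19.8% above without overlap in control. In si-miR-20a these shares were 20.1% and 21.8%, and in si-miR-671 they were 23.6% and 26%. With si-miR-20a, NUF2 differed from the control response by 0.52 on the log2 scale (0.13 against -0.38, adjusted p = 0.51) and ECT2 by 0.47 (0.28 against -0.19, adjusted p = 0.54). With si-miR-671, KIF4A differed by 0.54 (0.07 against -0.48, adjusted p = 0.42), KIF20A by 0.38 (0.17 against -0.21, adjusted p = 0.42) and UBE2C by 0.31 (0.14 against -0.17, adjusted p = 0.57). None of the 5 differences passed limma's direct test after Benjamini-Hochberg adjustment, and each rests on 2 arrays per group.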

How the results depend on the processing

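The 2 arrays per group limit the precision. No call of a single gene reversed in any setting; 1364 of 1692 such values kept the call without 1 array, and 1187 of 1292 in the other settings. With the replicate number as a block, counts of called mitosis genes were 31 for si-miR-671 against control, 14 for si-miR-20a, 24 for the direct comparison and 14 at 120 min, so the block moved no count by over 1.5 times. Without 1 array the counts ranged from 25 to 32 for si-miR-671, 2 to 11 for its early and 17 to 26 for its late arrays, 13 to 16 for si-miR-20a, 2 to 5 early and 10 to 13 late, 14 to 26 for si-miR-671 against si-miR-20a, 9 to 18 at 120 min, 0 to 6 in control, 0 to 6 in si-miR-20a, 0 to 3 in si-miR-671, and 0 to 1 for late minus early in si-miR-671. In a fit of only the arrays compared they were 2 for si-miR-671 early, 2 and 3 for si-miR-20a early and late, 12 for si-miR-671 against si-miR-20a, 8 at 120 min, 0 in each transfection at 120 min, and 1 for late minus early in si-miR-671. Array weights gave 16 for si-miR-671 early, 1 for si-miR-20a at 120 min, and 2 for late minus early in si-miR-671. Testing all probe sets gave 1 for control at 120 min, and the filter on low values 1 for late minus early in si-miR-671. The cause of these shifts was not tested.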
